A study of Mus musculus with 8 samples.

Results

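The genes described here are 6 receptors that draw granulocytes and monocytes towards bacterial peptides, complement fragments and lipid mediators: Fpr1, Fpr2, C5ar1, C3ar1, Ltb4r1 and Ptafr. Their members were taken as all probe sets that the platform annotation assigns to one of these genes and to no other. This gave 9 probe sets for 5 of the 6 receptors, out of 34958 probe sets with a single gene and 18194 genes on the array. Fpr1 is paired with no probe set in that annotation and was not analysed here. Of the 5, Fpr2, C5ar1, C3ar1 and Ltb4r1 were among the 8174 genes with at least 2 of the 8 arrays at or above log2 5, the level taken here as background, and Ptafr was not.

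RNA came from CD11b+Gr-1+ myeloid cells of C57BL/6J mice on 4 pairs of arrays. Bone marrow cells sorted as expressing HDC (histidine decarboxylase, which makes histamine) came from 3 HDC-EGFP mice, called wild-type here, and 3 HDC-EGFP/HDC-KO mice, all aged 3 to 4 months. Tumor cells came from the same genotypes, 5 mice each and aged 7 months, that had been given azoxymethane, a colon carcinogen, and then dextran sodium sulfate for 10 days, with tumors taken 22 to 24 weeks later. All 4 groups carried the HDC-EGFP transgene by their genotype labels, although the treatment text names the tumor-bearing deficient mice only as HDC-KO, and the labels do not describe the promoter of the transgene. The design text states pooling for the tumor cells, and the labels call the 2 arrays of each group technical replicates. Each group was therefore treated as 1 pool, for marrow too, and every p-value below measures a difference between pools against the spread of technical arrays, not the spread between mice. In such bulk samples, fewer cells of a type and less RNA per cell cannot be told apart.

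All 6 receptors are membrane proteins with a heptahelical fold that signal through G proteins, inhibitory ones among them. Formyl peptide receptors (Fpr1, Fpr2) sense peptides released by bacteria and mitochondria, and Fpr2 also binds serum amyloid A, annexin A1 and the cathelicidin peptide. C5ar1 and C3ar1 bind the anaphylatoxins C5a and C3a, which are cut from complement proteins during inflammation. Ltb4r1 is the high-affinity receptor for leukotriene B4, a lipid that neutrophils both make and follow, and Ptafr is the receptor for platelet-activating factor, a phospholipid.

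C3ar1 and Ltb4r1 were the receptors with a called difference, in opposite directions between tissues, so the 250 bases before their RefSeq start sites (GRCm38.p6, read 5′ to 3′) are shown. Capitals mark every match, on either strand, of 6 short motifs that were searched.

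C3ar1, chr6:122856158-122856407, minus strand: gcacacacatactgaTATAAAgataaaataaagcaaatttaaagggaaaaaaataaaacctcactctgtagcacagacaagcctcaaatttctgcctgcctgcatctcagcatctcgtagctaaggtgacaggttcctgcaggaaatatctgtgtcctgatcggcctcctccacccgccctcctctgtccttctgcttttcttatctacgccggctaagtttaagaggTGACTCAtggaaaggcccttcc

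Ltb4r1, chr14:55765712-55765961, plus strand: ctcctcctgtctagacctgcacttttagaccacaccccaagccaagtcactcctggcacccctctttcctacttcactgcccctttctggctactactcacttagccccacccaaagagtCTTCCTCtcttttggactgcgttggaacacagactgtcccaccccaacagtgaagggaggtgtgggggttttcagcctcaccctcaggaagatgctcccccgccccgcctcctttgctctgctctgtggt

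The motifs were GGAAGT and GAGGAAG (ETS-type, which can overlap), TTGCNNAA (C/EBP-like), TGANTCA (AP-1-like), TTCNNNGAA (STAT-like) and TATAAA. The C3ar1 window held TGACTCA at 22 to 16 bases before the start and TATAAA at 235 to 230 bases before it, and these motifs occur in 6.75% and 12.4% of 32851 mouse windows of this length. The Ltb4r1 window held GAGGAAG, on the opposite strand as CTTCCTC, at 130 to 124 bases before the start, and 10.6% of windows hold it. The Fpr2 window had 1 match each of TTCNNNGAA and TATAAA, the C5ar1 window had 2 of GGAAGT, and the Ptafr window had none. A match describes letters only, and no binding was measured.

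Hdc, the targeted gene, fell 10.2-fold from wild-type to HDC-KO marrow (limma with Benjamini-Hochberg adjustment, adjusted p = 1.5e-06). Between the tumor pools it differed by -0.21 on the log2 scale, so Hdc went against the genotype label of the second tumor pool. That pool is called the pool labelled HDC-KO throughout, and the direction of every difference with it rests on a label that Hdc did not bear out. The arrays of a pair correlated at 0.995 to 0.998 across tested genes. Itgam, which encodes CD11b, had pool means of 11.3 to 12.4, and 8 of 10 mature neutrophil markers were tested. Ly6g, a part of the Gr-1 epitope, was not analysed here.

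Markers of other cells moved between the pools. The 10 epithelial markers averaged 2.65 to 2.97 on the bone marrow arrays, 8.05 to 8.15 on the wild-type tumor arrays and 10.74 to 10.80 on those labelled HDC-KO, and 9 of 10 were called higher between the tumor pools. Of 9 tested monocyte and macrophage markers 9 were called higher in each tumor pool than in marrow, with list means of 5.65 to 6.04, 9.59 to 9.65 and 11.15 to 11.16 on the same sets of arrays. The 6 tested granulocyte precursor markers went the other way, at 11.39 to 11.77, 9.40 to 9.41 and 5.67 to 5.88. The macrophage markers Mertk, Fcgr1, Cx3cr1, C1qa and C1qc were under log2 5 on all marrow arrays, as were the 10 epithelial markers. They reached the level for testing through tumor arrays only. Their calls against marrow are therefore not separate support for a difference between tissues. MHC class II and dendritic cell markers were called higher between the tumor pools in 6 of 6. Of these, Ciita reached the level for testing only through the pool labelled HDC-KO, with a mean of 3.33 in wild-type tumor. B and plasma cell markers were called higher from HDC-KO marrow to the pool labelled HDC-KO in 4 of 4, with list means of 6.83 and 11.60. Eosinophil, basophil and mast cell markers were called lower in HDC-KO than in wild-type marrow in 5 of 7. Of these, Fcer1a, Ms4a2 and Cpa3 reached the level for testing through the wild-type marrow arrays only. In the same comparison, 2 of 4 tested T and NK cell markers were called higher and 1 lower. Among them Cd3d had means of 7.63 in wild-type and 12.48 in HDC-KO marrow. Gzma, at 3.36 and 4.38, and Cd3g, at 2.46 and 2.91, were under background in both pools. Cd3e, Cd4 and Cd8a reached at most 3.16, 3.19 and 4.27 on any array and were not tested. Of the 4 B and plasma cell markers 1 was called higher and 2 lower there, with Jchain at 8.90 and 5.09. None of 7 fibroblast and endothelial markers reached the level for testing. The shares of all genes called in each comparison are given with the receptor counts below.

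The mature neutrophil markers had list means of 13.1 to 13.3, but their members went both ways. From HDC-KO marrow to the pool labelled HDC-KO, Mmp8 fell 2.46-fold, Mmp9 2.22-fold and Itgam 2.18-fold, while Il1r2 rose 2.44-fold. S100a8 and S100a9 had pool means of 15.1 to 15.2, near the highest value on any array, 15.3. Between the tumor pools 0 of 8 were called in limma, with 6 at an unadjusted p under 0.05. The marker lists differed across the same pools as the receptors below, in some cases in the opposite direction. Their part in the receptor differences was not tested.

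**Figure D1:**
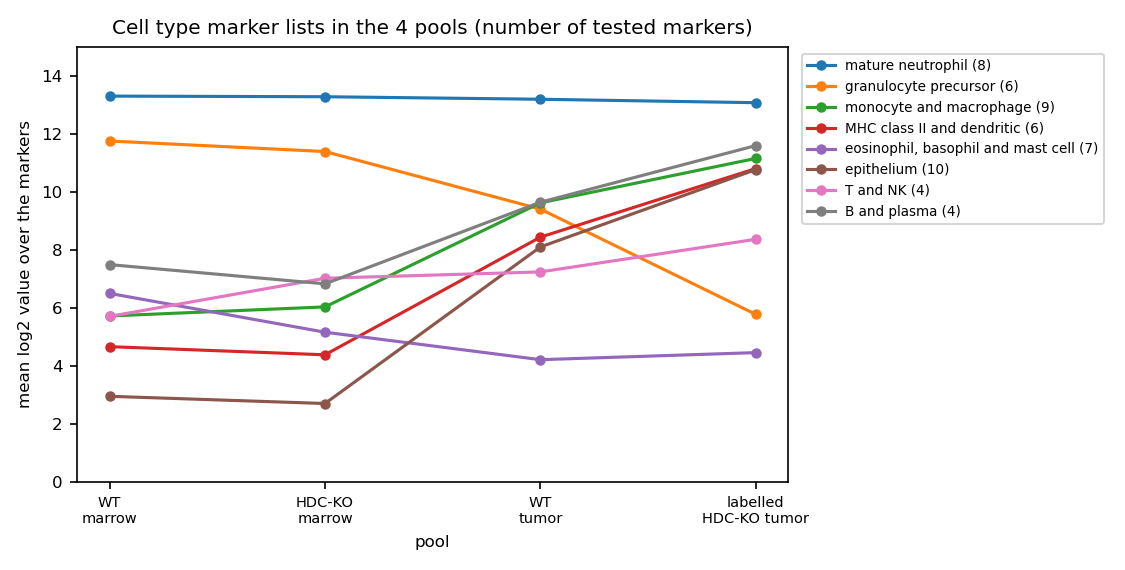
Mean log2 value over the tested markers of 8 cell type lists (points) in the 4 pools, with the number of markers in brackets. The mature neutrophil line, a mean over markers that went both ways, lies between 13.1 and 13.3, while the epithelial, macrophage and MHC class II lines climb and the granulocyte precursor line drops from marrow to the tumor pool labelled HDC-KO.

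C3ar1, the receptor for the anaphylatoxin C3a, was higher in tumor than in bone marrow, in both genotypes. Its brightest probe set (1442082_at) read 2.94 and 3.54 (log2) on the 2 wild-type marrow arrays, 2.92 and 2.89 on the HDC-KO marrow arrays, 7.70 and 7.35 on the wild-type tumor arrays, and 7.43 and 6.66 on those labelled HDC-KO. All 4 tumor arrays thus lay above the background level and all 4 marrow arrays below it, with no overlap, while the arrays of the tumor pools overlapped. C3ar1 therefore reached the level for testing through its tumor arrays only, the tissue in which it was higher. That split is not separate support for the difference between tissues. The rise from marrow was 4.28 ± 0.30 on the log2 scale in wild-type (SE, n = 2 technical arrays per pool, limma adjusted p = 7.1e-05) and 4.14 ± 0.30 in HDC-KO (limma adjusted p = 2.6e-05). With marrow raised to log2 5, C3ar1 was at least 5.75-fold higher in the wild-type tumor pool and at least 4.12-fold higher in the pool labelled HDC-KO.

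The other probe sets of C3ar1 showed the same order of tissues at dimmer signal. Probe set 1419482_at averaged 2.35 and 2.48 in the wild-type and HDC-KO marrow pools, and 5.19 and 5.08 in the tumor pools. Probe set 1419483_at stayed under log2 5 on all arrays, with tumor means of 4.53 and 4.59 against marrow means of 2.16 and 1.78. With its 3 probe sets averaged, C3ar1 differed by 3.16 between tissues in wild-type and by 3.18 in HDC-KO, sizes that rest on marrow values under background and are not measured folds. Between the genotypes the tested probe set differed by -0.33 ± 0.30 in marrow, where both pools were under background (limma adjusted p = 0.49), and by -0.48 ± 0.30 in tumor (limma adjusted p = 0.19), and neither passed.

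Ltb4r1, the leukotriene B4 receptor, was lower in the tumor pool labelled HDC-KO than in any other pool. Its single probe set (1420407_at) read 10.82 and 10.84 on the wild-type marrow arrays, 10.81 and 10.74 on the HDC-KO marrow arrays, 9.98 and 10.11 on the wild-type tumor arrays, and 8.80 and 8.86 on those labelled HDC-KO. The marrow arrays lay highest and close together, the wild-type tumor arrays below all of them, and the arrays labelled HDC-KO lowest, without overlap. Ltb4r1 fell by 1.22 ± 0.06 on the log2 scale between the tumor pools, which was 2.32-fold (limma adjusted p = 1.2e-05), and by 1.95 ± 0.06 from HDC-KO marrow to the pool labelled HDC-KO, which was 3.85-fold (limma adjusted p = 7.8e-07). From wild-type marrow to wild-type tumor it differed by -0.79 ± 0.06, with a limma adjusted p of 0.00014 but under the 2-fold threshold. Its genotype difference in tumor exceeded that in marrow by -1.16 ± 0.09 (limma adjusted p = 9.7e-05), and that in marrow was -0.06 ± 0.06.

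**Figure D2:**
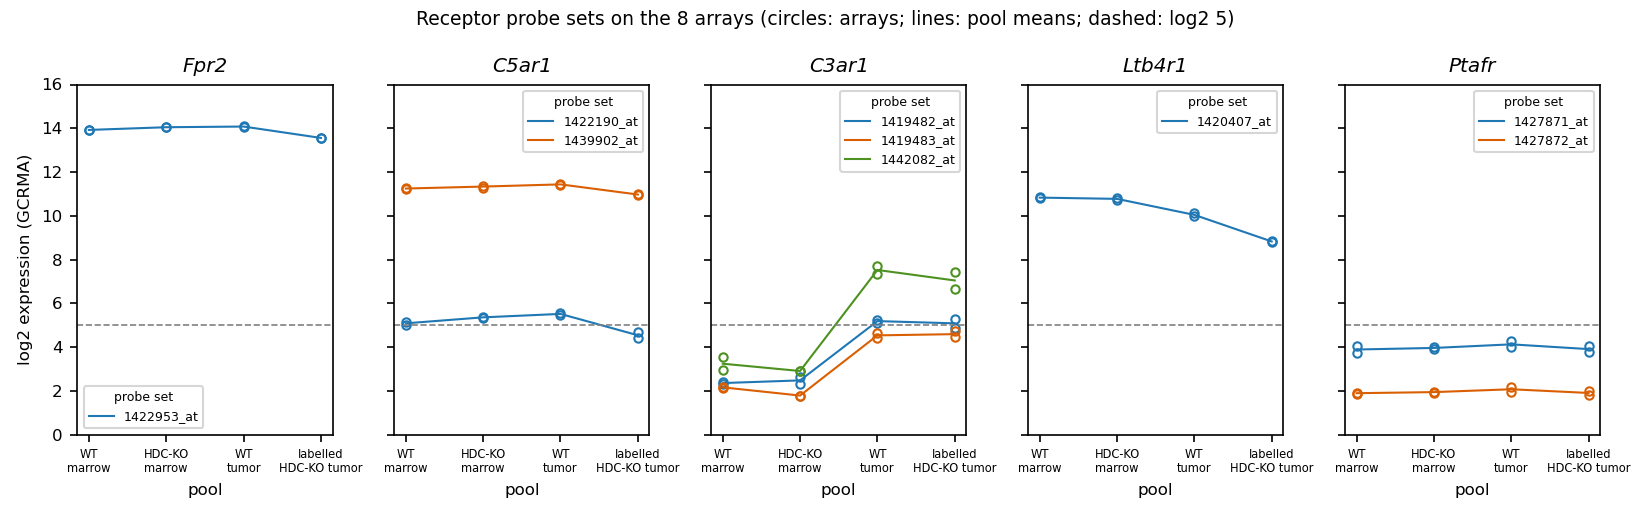
Log2 expression (GCRMA) of the 9 probe sets of 5 receptors in the 4 pools: circles are the 2 technical arrays of a pool, lines join pool means and the dashed line is log2 5. C3ar1 crosses the dashed line from marrow to tumor at 2 of its 3 probe sets, Ltb4r1 steps down to 8.80 and 8.86 in the pool labelled HDC-KO, and Ptafr stays under the line.

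Fpr2, the formyl peptide receptor that also binds serum amyloid A, stayed within 1.5-fold in the 4 comparisons of pools and was not called in any comparison. Its probe set (1422953_at) read 13.94 and 13.91 on the wild-type marrow arrays, 14.04 and 14.05 on the HDC-KO marrow arrays, 14.09 and 14.07 on the wild-type tumor arrays, and 13.54 and 13.57 on those labelled HDC-KO. The arrays labelled HDC-KO were the lowest, by more than the spread within any pair. The difference between the tumor pools was -0.52 ± 0.05 (limma adjusted p = 0.00011), or 1.43-fold, under the 2-fold threshold. These values sit near the top of the scale, where the highest value on any array was 15.3.

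C5ar1, the C5a receptor, had the same order of pools as Fpr2 at both of its probe sets. Probe set 1439902_at read 11.23 and 11.26 on the wild-type marrow arrays, 11.29 and 11.38 on the HDC-KO marrow arrays, 11.46 and 11.41 on the wild-type tumor arrays, and 10.94 and 11.01 on those labelled HDC-KO. The steps among the first 3 pools were 0.09 and 0.10, and the arrays of neighbouring pools were as little as 0.02 apart, so these neighbours are hardly separated from the spread within pairs. The difference between the tumor pools was -0.46 ± 0.06 (limma adjusted p = 0.00054), or 1.38-fold, and did not reach the threshold. The dimmer probe set 1422190_at had pool means of 5.08, 5.36, 5.51 and 4.54 in the same sequence, the last under background, and a tumor difference of -0.98 ± 0.10, which was -0.51 with values raised to log2 5.

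Ptafr, the receptor for platelet-activating factor, was under log2 5 on all 8 arrays at both of its probe sets and was not tested. Probe set 1427871_at ranged from 3.73 to 4.26, and 1427872_at from 1.82 to 2.17. The pool means of the first ranged over 0.24 and neighbouring pools overlapped, so no order of pools could be read from it.

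Counted over comparisons, few receptors passed both thresholds, an adjusted p under 0.05 and at least 2-fold. Between the marrow pools, a comparison that asks about Hdc loss in mice without tumors, 0 of 4 tested receptors were called by limma, against 3.82% of all genes tested (1.8% higher and 2.02% lower), and 1 of the 4 had an unadjusted p under 0.05. Between the tumor pools 1 of 4 was called, as lower, against 26% of genes (15.5% higher and 10.5% lower). From marrow to tumor 1 of 4 was called in wild-type, as higher, against 16.4% of genes (11.6% higher and 4.81% lower). In HDC-KO 2 of 4 were called, 1 in each direction, against 36.5% of genes (21.1% higher and 15.4% lower). The difference of the genotype effects was called for 1 of 4, as lower, against 28.5% of genes (16.8% higher and 11.7% lower). With 4 receptors, nothing about the group as a whole is read from these shares. The medians of the 4 receptors were 0.02 between the marrow pools and -0.50 between the tumor pools, against 0.00 and 0.03 over all genes tested.

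**Figure D3:**
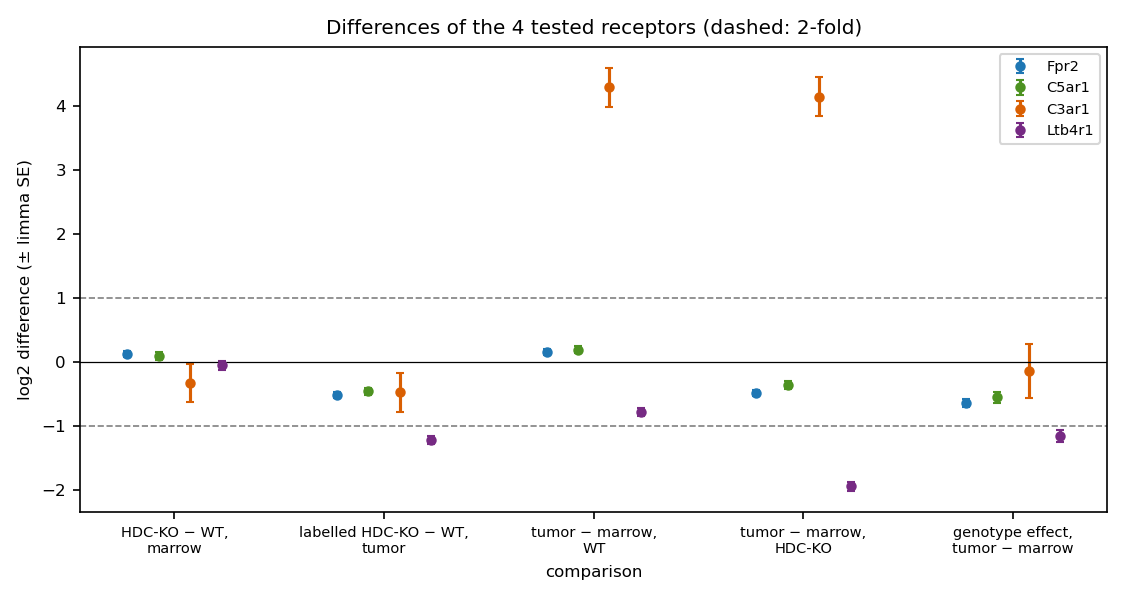
Log2 differences (points, with limma's standard error as bars) of the 4 tested receptors in 5 comparisons, with dashed lines at 2-fold. C3ar1 stands above 4 in both comparisons of tumor with marrow, and Ltb4r1 lies below -1 in the 3 comparisons that involve the pool labelled HDC-KO.

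Among the genes that make and remove the lipid ligands, those of leukotriene B4 synthesis all had lower means in the pool labelled HDC-KO, but only Alox5 and Lta4h were called. This was against wild-type tumor, and the sizes differed. Alox5, the 5-lipoxygenase that starts leukotriene synthesis, read 11.63 and 11.74 on the wild-type tumor arrays and 10.24 and 10.30 on those labelled HDC-KO, and fell 2.67-fold. Lta4h, the hydrolase that makes leukotriene B4 itself, read 12.86 and 12.88 against 10.79 and 10.86, and fell 4.13-fold. On the arrays labelled HDC-KO both genes lay below all 6 other arrays, as Ltb4r1 did. Alox5ap, which presents the substrate to Alox5, differed by -0.21 between the tumor pools, and Pla2g4a, which frees arachidonic acid from membranes, by -0.17. Pla2g4a read 9.29 and 9.46 on the arrays labelled HDC-KO, which overlapped the HDC-KO marrow arrays at 9.48 and 9.39. Alox5ap read 13.85 on both arrays labelled HDC-KO and 13.98 to 14.07 on the 6 others. These values lie near the top of the scale, where a difference may not be seen in full. Cyp4f18, which inactivates leukotriene B4, had a difference of 0.54, also under 2-fold.

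Of the 11 tested genes of this list, 3 were called lower and 1 higher between the tumor pools (median -0.21), and 3 lower and 2 higher from HDC-KO marrow to the pool labelled HDC-KO (median -0.17, against -0.02 over all genes). Over all genes tested, 26% were called in the first of these comparisons and 36.5% in the second. Lpcat1, an acyltransferase that can make platelet-activating factor, was the third that fell, by 2.48-fold and 3.62-fold in those comparisons. The first was not called with its probe sets averaged (-0.88) or with probe sets ending in _x_at or _s_at left out (-0.91). Lpcat2, the inducible enzyme of this step, was not called in any comparison at its brightest probe set, while its other detected probe set differed by 1.56 between the marrow pools and by 1.79 from marrow to tumor in wild-type. Pla2g7, which breaks down platelet-activating factor, rose 2.62-fold from marrow to tumor in wild-type and 3.71-fold in HDC-KO, and read 10.86 to 11.25 on the marrow arrays, 12.27 and 12.25 on the wild-type tumor arrays, and 13.10 and 13.15 on those labelled HDC-KO. Pafah1b3, a catalytic subunit of the intracellular hydrolase, rose 2.72-fold between the tumor pools. Its wild-type tumor arrays read 4.85 and 5.20, close to background, against 6.48 and 6.45 on those labelled HDC-KO. None of the 11 genes was called between the marrow pools in limma, against 3.82% of all genes. Of the 11, 7 had an unadjusted p under 0.05, including Lta4h, at a log2 difference of -0.36.

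**Figure D4:**
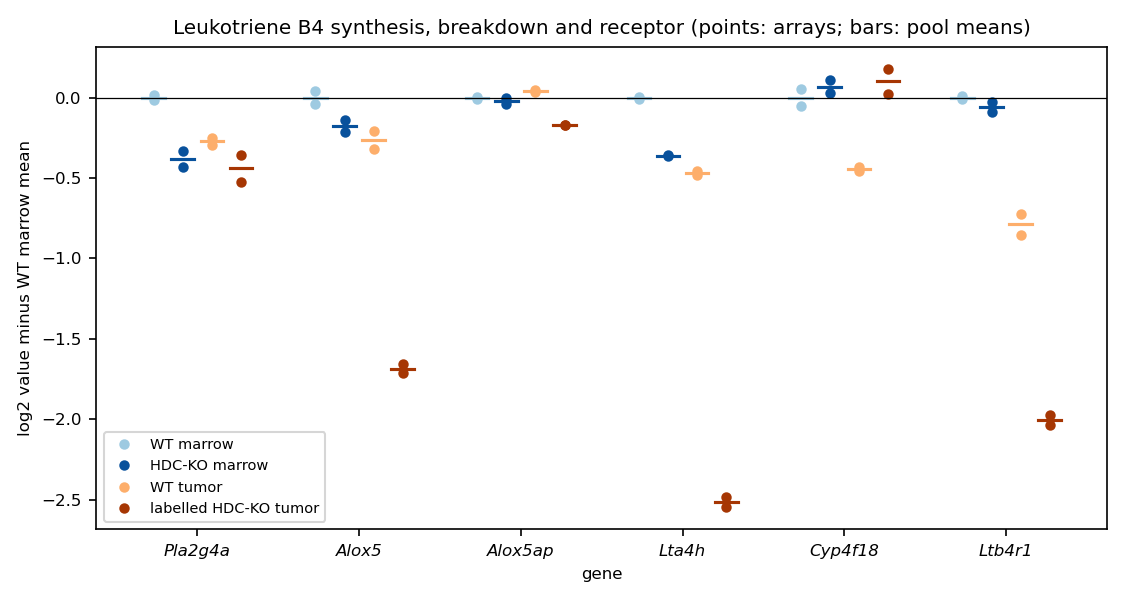
Log2 value minus the wild-type marrow mean for leukotriene B4 synthesis (Pla2g4a, Alox5, Alox5ap, Lta4h), breakdown (Cyp4f18) and reception (Ltb4r1), with points for arrays and bars for pool means. The synthesis genes and Ltb4r1 have their lowest means in the pool labelled HDC-KO, by little for Alox5ap and Pla2g4a. Cyp4f18 lies close to 0 there.

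Peptide ligands of Fpr2 differed among themselves. Saa3, a serum amyloid A made by macrophages and epithelium, read 3.60 to 3.99 on the marrow arrays, 9.46 and 9.45 on the wild-type tumor arrays, and 11.26 on both arrays labelled HDC-KO. It was at least 21.9-fold higher in tumor than in marrow in wild-type, at least 76.8-fold higher in HDC-KO, and rose 3.50-fold between the tumor pools. Saa1 was at least 4.13-fold and at least 32.4-fold higher in the tumor pools than in marrow, and rose 7.84-fold between them. Without probe sets ending in _x_at or _s_at, the last difference went from 2.97 to 3.82 on the log2 scale. Anxa1 and Camp, which encode annexin A1 and cathelicidin, read 14.3 to 14.9 on all 8 arrays at the probe sets tested and were not called in any comparison. The other detected probe set of Anxa1 differed by -3.52 between the tumor pools and by -4.27 from HDC-KO marrow to the pool labelled HDC-KO, so the probe sets of Anxa1 disagree. The tested values of Anxa1 and Camp lie near the top of the scale, where a difference may not be seen. The epithelial markers given above moved in the same direction as Saa1 and Saa3, and their part in these differences was not tested.

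Complement was represented by Hc, which encodes C5, the precursor of the C5ar1 ligand, and Cfp, or properdin. Hc read 4.48 and 4.21 on the wild-type marrow arrays, 4.99 and 5.21 on the HDC-KO marrow arrays, 6.98 and 7.06 on the wild-type tumor arrays, and 3.92 and 3.73 on those labelled HDC-KO. The wild-type tumor arrays thus stood above all the others, at least 4.07-fold above wild-type marrow and at least 4.07-fold above the other tumor pool. From HDC-KO marrow to the pool labelled HDC-KO it was called lower at -1.28, but with a floor at log2 5 the difference was -0.10 and no longer called. Cfp was not called. Hc would not have reached the level for testing without its wild-type tumor arrays, the pool in which it was highest. Saa1 and Saa3 reached it through tumor arrays only. Of the 6 tested ligand genes, 2 were called higher and 1 lower between the tumor pools (median -0.17), and none between the marrow pools in limma, with 2 at an unadjusted p under 0.05. Over all genes tested, 26% were called between the tumor pools and 3.82% between the marrow pools.

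Of 14 related receptors, 4 were tested, and all 4 were called between the tumor pools, 2 in each direction, against 26% of all genes. Ffar2, a receptor for short-chain fatty acids, read 9.13 and 9.28 on the wild-type tumor arrays and 6.75 and 7.30 on those labelled HDC-KO, and fell 4.54-fold. Gpr84, a receptor for medium-chain fatty acids, fell 2.91-fold, from means of 10.52 to 8.98. Cmklr1, the chemerin receptor, was at least 3.43-fold higher in the pool labelled HDC-KO, where it read 6.56 and 6.99, than in the wild-type tumor pool. Cmklr1 reached the level for testing only through the pool labelled HDC-KO. Cysltr1, a receptor for cysteinyl leukotrienes, rose 3.07-fold. None of the 4 was called between the marrow pools in limma, against 3.82% of all genes, with 1 at an unadjusted p under 0.05. The receptors Fpr-rs3, Fpr-rs4, Ptgdr2, Gpr33 and Cysltr2 reached at most 2.68 on any array, under the background level.

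Of 18 tested genes of G protein and kinase signalling, 2 were called lower and none higher between the tumor pools (median -0.20), against 26% of all genes called there. From HDC-KO marrow to the pool labelled HDC-KO 3 were called lower and none higher (median -0.36), against 36.5% of all genes. Plcb2, a phospholipase activated by these receptors, read 7.89 and 7.62 on the wild-type marrow arrays, 7.41 and 7.22 on the HDC-KO marrow arrays, 6.19 and 6.18 on the wild-type tumor arrays, and 4.61 and 4.51 on those labelled HDC-KO. It stepped down with each tumor pool, by 2.97-fold in wild-type and by at least 4.96-fold in HDC-KO, and was at least 2.27-fold lower in the pool labelled HDC-KO than in the wild-type tumor pool. The G protein subunits Gnai2 and Gnai3, which couple to these receptors, differed by -0.35 and -0.60 between the tumor pools, under 2-fold, and a further probe set of Gnai3 read -1.17. Gna15, a subunit that also couples to them, was called lower between the tumor pools with both under background, so no fold is given.

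Elmo1, a partner of Dock2, fell 2.50-fold from HDC-KO marrow to the pool labelled HDC-KO, but by 0.55 on the log2 scale with its probe sets averaged, which is under the threshold. Pik3cg, the catalytic subunit of phosphoinositide 3-kinase gamma, was called higher in HDC-KO than in wild-type marrow, by 2.37-fold, and in wild-type tumor than in wild-type marrow, by 2.06-fold. Its other detected probe set differed by -0.39 and -0.80 in these comparisons, and with the probe sets averaged Pik3cg was not called in either. Without array 2 of the wild-type marrow pool, the second of these differences was 0.94 and was not called.

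Genes that switch the receptors off differed in both directions between the tumor pools. Of 10 tested, 3 were called higher and 2 lower (median -0.37, mean 0.08), against 26% of all genes called there. Grk3 and Grk5, kinases that phosphorylate active receptors, rose 5.11-fold and 2.61-fold, and Arrb1, an arrestin, rose 2.34-fold, with wild-type tumor arrays at 6.71 and 5.91 and those labelled HDC-KO at 7.55 and 7.51. Without wild-type tumor array 2 the difference of Arrb1 was 0.82 and was not called, which leaves 2 called higher. Arrb2, the other non-visual arrestin, fell 2.08-fold and Rgs18, which speeds the shutdown of G proteins, 2.96-fold. Rgs1, another such regulator, was at least 57.2-fold higher in wild-type tumor and at least 41.4-fold higher in the pool labelled HDC-KO than in marrow, where all 4 arrays were at 2.44 to 3.81. Rgs1 reached the level for testing through its tumor arrays only. Grk5 was under 2-fold, at 0.83, at its other detected probe set. The rise of Grk3 from marrow to wild-type tumor, 2.19-fold, was 0.43 on the log2 scale with probe sets ending in _x_at or _s_at left out, and was then not called, while its difference between the tumor pools went from 2.35 to 2.96. In marrow, Rgs1 was called lower in HDC-KO at -1.11 with both pools under background, and was not called at -0.93 without HDC-KO marrow array 1.

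For the receptors whose pool means ranged over at least log2 1, the most alike tested genes were found by the root mean square difference of the 4 pool means after centring each gene. For C3ar1 these were Rai14 at 0.05, Ednrb at 0.14 and Cxcl16 at 0.20. Rai14 had pool means of 3.13, 2.87, 7.45 and 6.87 in wild-type marrow, HDC-KO marrow, wild-type tumor and the pool labelled HDC-KO. For Ltb4r1 they were Rbm38 at 0.03, Hirip3 at 0.04 and Msantd3 at 0.04. Rbm38 had its pools in the same sequence as Ltb4r1, from 8.82 in wild-type marrow to 6.83 in the pool labelled HDC-KO. C3ar1, Rai14, Ednrb and Cxcl16 were all under log2 5 in both marrow pools, so their distances and order rest in part on values not above background. The same limit holds for Hirip3 and Msantd3, with means of 4.84 and 4.21 in the pool labelled HDC-KO. With 4 pools, these likenesses are descriptions only.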

How the data were processed

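RNA of CD11b+Gr-1+ cells was measured on 8 Affymetrix arrays, 2 for each of 4 pools, grouped by their titles. The authors deposited log2 values for 45101 probe sets, computed by GCRMA, which corrects background and normalizes between arrays, per the submitters' processing notes. That the scale is log2 was inferred from the range of the values, while software version, detection calls and array build were not given in the sources used here. Arrays have no read depth, so their number limits the precision. The platform annotation gave 34958 probe sets 1 gene, 932 several and 9211 none, and no gene was named from the latter 2 sets.

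Each of 18194 genes was represented by its probe set of highest mean. Testing covered the 8174 of them that reached log2 5 on 2 arrays or more, using lmFit and eBayes of limma 3.58.1 (R 4.3.3) on all 4 pools, with 4 residual degrees of freedom. A gene was called at a Benjamini-Hochberg adjusted p under 0.05 over all genes and a log2 difference of at least 1. Where a pool mean was under log2 5 it was raised to 5 and the fold is a bound, and no fold is given where both were under it. Errors are limma's standard errors. The model was also run on simulated data for the marrow genotype comparison over 8174 genes. It recovered 98 of 100 genes given a change of log2 1.5, 99 of 100 given log2 2, and made 0 false calls. The simulated noise was normal, with the spread of the technical arrays around wild-type marrow means. The changed genes had wild-type marrow means of at least log2 5, and both sizes exceeded the 2-fold threshold. High recovery was therefore built in, and the result says nothing about the spread between mice.

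The receptors and gene lists were chosen with earlier results of these data known. Named were all receptors, Hdc, up to 3 called genes with the largest difference per list and comparison, and the 3 genes most like a receptor. List genes named as not called, Arrb2, Lpcat1, Gpr84 and Arrb1 between the tumor pools, and the markers Mmp9, Itgam, S100a8 and S100a9 were chosen after their values were seen. Promoter windows are from RefSeq (GRCm38.p6), and 6 of 6 receptors were matched. Alternatives were other filters, a floor at log2 5, quantile normalization, median centring, other choices of probe set, fewer groups, the replicate number as a block and each array left out.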

Additional observations from a re-analysis of the deposited data

Results flagged for a closer look

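The genotype difference in tumor minus that in marrow was tested directly in limma, and the receptors, Hdc and up to 3 called genes of each list that had an adjusted p under 0.05 are given here. Hdc had a difference of 3.14 on the log2 scale, with a fall in marrow that the tumor pools did not share. Among the receptors it was -1.16 for Ltb4r1, -0.64 for Fpr2 and -0.55 for C5ar1, the last 2 under 2-fold. The dimmer C5ar1 probe set, tested when every probe set was kept, had a difference of -1.25. Its mean in the pool labelled HDC-KO was under background, and with values raised to log2 5 the difference was -0.79 and was not called.

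Among the lipid enzymes the difference was -1.68 for Lta4h, -1.62 for Lpcat1 and -1.24 for Alox5. Among the ligands it was 3.10 for Saa1, 2.03 for Saa3 and -3.95 for Hc. Cmklr1, at 2.67, went the opposite way from Ffar2, at -2.25, and Gpr84, at -2.10. For genes of desensitization it was 2.17 for Grk3, 1.76 for Arrb1 and -1.76 for Rgs18. For signalling genes it was -1.77 for Pik3cg, -1.18 for Plcb2 and -1.84 for Gna15. Grk3 was at 2.93 without probe sets ending in _x_at or _s_at. Pik3cg was not called at -0.92 with its probe sets averaged, nor were Plcb2 at -0.74 and Gna15 at -0.30 with values raised to log2 5.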

How the results depend on the processing

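Of 376 values of the 4 receptors under alternatives, 372 kept their direction and their side of the threshold, and of 188 counts of called genes or receptors 187 stayed within 1.5 times. The exception was the difference of genotype effects, where 2 receptors instead of 1 were called with every probe set tested, the second being C5ar1 through its dimmer probe set, whose mean in the tumor pool labelled HDC-KO is under background. With values also raised to log2 5, an alternative chosen after seeing the data, its difference was -0.79 and 1 receptor was called. C3ar1 had no called difference of genotype effects, and its value of -0.15 changed sign to 0.021 with its probe sets averaged, to 0.15 without wild-type marrow array 1, to 0.03 without wild-type tumor array 1 and to 0.24 without array 2 of the tumor pool labelled HDC-KO; with each array left out in turn it ran from -0.53 to 0.24. The cause was not tested. Of 1272 values of the called list genes 35 lost the call and none changed direction. Of the 35, 8 came with values raised to log2 5, Cysltr1 and Cmklr1 in wild-type tumor against marrow among them, and the same number when every probe set was also kept. With 1 array left out, its partner is assumed to vary like the other pools. The fall of Ltb4r1 between the tumor pools then ran from -1.28 to -1.15, and the rise of C3ar1 in wild-type tumor from 3.98 to 4.58. Same-numbered arrays shared only a number: their deviations correlated at -0.015 to 0.058 over 6 pairs of pools. With the replicate number as a block, 312, 2122, 1339, 2986 and 2327 genes were called in the 5 comparisons, against 312, 2122, 1338, 2986 and 2330 without it, and 0, 1, 1, 2 and 1 receptors. The 2-array pools allow no statement on the spread between mice, and Ptafr and marrow C3ar1 lie under the background level. A fit on only the groups compared was not run for the difference of genotype effects, which uses all 4 pools.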
